A study of Mus musculus with 24 samples.

Results

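The genes described here are 32 genes of cholesterol synthesis and its control, out of 24421 gene symbols counted. They were chosen by symbol, with earlier results of these data known. The set holds 8 enzymes of the mevalonate and isoprenoid arm and 12 enzymes of the squalene and sterol arm. It also holds the sterol carrier gene Stard4, 7 genes of the SREBP system and 4 genes of the LXR system. All 32 passed the filter on low counts in every comparison. Expression was measured by total RNA-seq in adipose tissue of 2-month-old C57BL/6 mice. The animals were wild type (WT) or carried a substitution of the tyrosine Y665 of STAT5B, a transcription factor downstream of growth hormone and cytokine receptors. Y665F puts phenylalanine in its place and Y665H puts histidine. Each genotype was represented by 4 female and 4 male libraries, which made 6 groups and 24 libraries. The labels give adipose as the tissue, while the title of the series names the liver. A hepatocyte list of 6 genes summed to 399 to 3560 counts per 1000000, but few of its genes carried that sum. In each group 3 or 4 of the 6 reached a mean of 1 count per 1000000. The mean log2 level of the list (log2 of counts per 1000000 plus 1) was 2.17 to 3.05. The labels name no fat depot, no zygosity and no other allele or treatment, and nothing says whether each library came from its own animal, so p-values measure only the spread between these libraries.

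Cholesterol is built from acetyl-CoA by way of mevalonate, farnesyl diphosphate, squalene and lanosterol. The SREBP transcription factors drive the genes of this route when sterols are low: SCAP carries the precursor from the endoplasmic reticulum to the Golgi, where the proteases of Mbtps1 and Mbtps2 release it, and INSIG proteins hold SCAP back when sterols are plentiful. The liver X receptors (LXRs) sense oxysterols and turn on cholesterol efflux, with Abca1, Abcg1 and Srebf1 among their known targets. Fat cells store much of the body's free cholesterol, and SREBP-1 is known there mainly for its part in lipogenesis.

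The bases before the annotated start sites of 4 members are shown because these members differed between the groups below and carry letters known from SREBP-driven promoters. They are RefSeq sequence of build GRCm38.p6, written 5′ to 3′ on the strand of the gene. Capitals mark TCACNCCAC, the core of a sterol regulatory element, and CCAAT, the box bound by NF-Y, on either strand (ATTGG on the reverse). Hmgcs1 was taken from chr13:119690101-119690350 on the plus strand, Insig1 from chr5:28071162-28071362 plus, Nsdhl from chrX:72918271-72918520 plus and Mvd from chr8:122443423-122443672 minus.
Hmgcs1: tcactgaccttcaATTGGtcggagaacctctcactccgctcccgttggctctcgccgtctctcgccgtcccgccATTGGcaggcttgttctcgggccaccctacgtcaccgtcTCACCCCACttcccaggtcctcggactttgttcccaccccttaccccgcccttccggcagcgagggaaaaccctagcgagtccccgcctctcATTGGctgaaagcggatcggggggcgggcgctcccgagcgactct
Insig1: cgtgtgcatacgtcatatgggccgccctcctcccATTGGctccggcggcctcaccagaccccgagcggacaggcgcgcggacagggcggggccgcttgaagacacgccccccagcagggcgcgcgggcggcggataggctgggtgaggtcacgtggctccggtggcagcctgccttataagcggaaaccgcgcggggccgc
Nsdhl: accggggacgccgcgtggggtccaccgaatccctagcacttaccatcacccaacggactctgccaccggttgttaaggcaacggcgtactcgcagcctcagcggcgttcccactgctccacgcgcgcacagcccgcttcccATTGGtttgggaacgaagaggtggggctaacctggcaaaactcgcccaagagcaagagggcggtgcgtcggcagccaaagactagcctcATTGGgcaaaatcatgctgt
Mvd: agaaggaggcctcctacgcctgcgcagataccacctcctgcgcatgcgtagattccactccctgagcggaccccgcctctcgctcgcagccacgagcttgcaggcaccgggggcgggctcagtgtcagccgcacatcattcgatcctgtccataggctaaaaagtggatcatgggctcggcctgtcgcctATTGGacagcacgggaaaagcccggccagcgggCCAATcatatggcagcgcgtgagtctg

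Windows of 250 bases before to 50 bases from the RefSeq start were found for 27 of the 32 members. The sterol element core, searched on both strands, was in the window of Hmgcs1, 137 to 129 bases before the start, and in no other member window. Of all 32851 promoter windows, 1.24% held it. CCAAT was in a window of 20 of the 27 members, against 41.1% of all genes, and the GC box GGGCGG in 22 of the 27, against 38.2% of all genes. No match of one motif overlapped a match of another in the member windows. A match is a description of the letters only.

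Depth, as the sum over gene symbols, ranged from 21.0 to 41.3 M (1 M is 1000000 counts; median 34.6). A level is the count of a gene per 1000000 counts over all gene symbols of its library (CPM). Adipocyte markers were high in all libraries: the summed level of 10 genes such as Adipoq and Plin1 was 7525 to 26229 CPM. In WT male 2 this sum was 7525 CPM and an 8-gene epididymis list reached 13318 CPM, while WT male 3 and WT male 4 held 3222 and 1234 CPM of that list and WT male 1 held 1.15 CPM. Y665F female 3 had 12076 CPM of the adipocyte list and 1095 CPM of an epithelial list. These 2 libraries, and WT female 2, which is described below, stood apart from their groups. Because the tissue was sequenced in bulk, fewer cells of a type and less RNA per cell cannot be told apart.

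Per kb of exon, Insig1 and Srebf1 were the most abundant members in WT females, at 199 and 143 CPM per kb, followed by Abca1 at 66.4, Hmgcs1 at 57.1 and Nr1h3 at 50.2. Most enzymes lay between 4.21 (Idi1) and 40.5 (Acat2) CPM per kb. The least abundant were Mbtps2 at 2.04 and Stard4 at 1.95 CPM per kb. Lowly expressed on this scale were also Ggps1, the synthase of the geranylgeranyl branch, at 4.19, and the sterol reductase gene Hsd17b7 at 3.04.

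**Figure D1:**
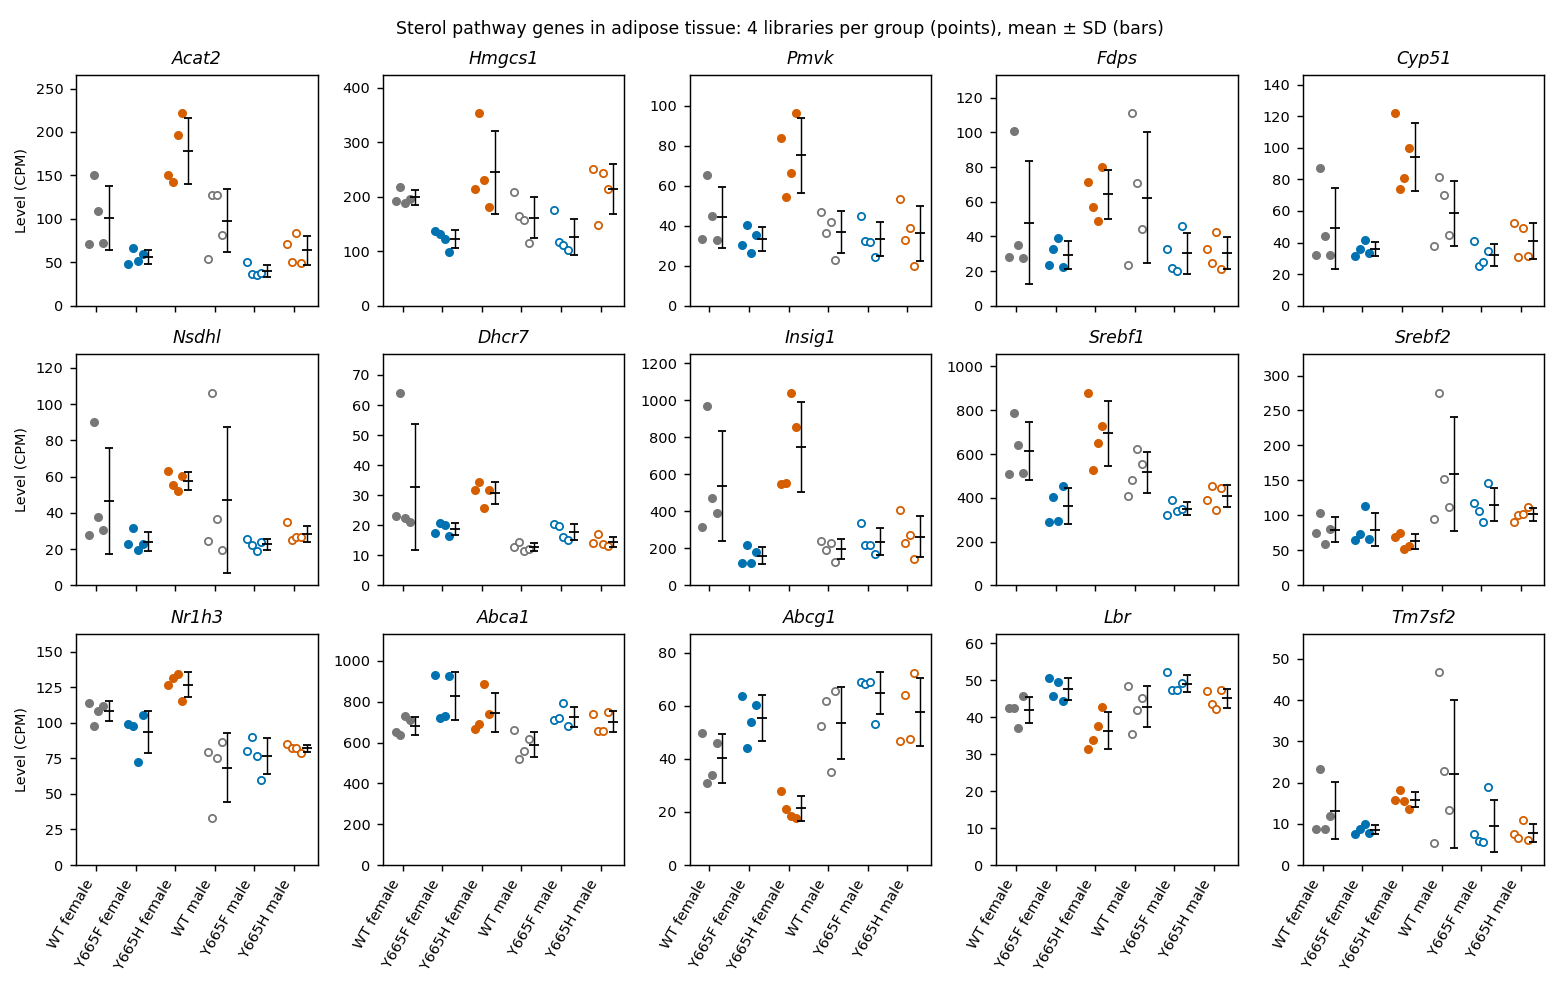
Level in CPM of 15 members in each of the 24 libraries (points), by genotype and sex, with the mean ± SD of 4 libraries as bars; each y axis starts at 0. Y665H females lie above Y665F females for the enzymes from Acat2 to Dhcr7 and for Insig1, and below them for Abcg1, while WT female 2 and WT male 2 lie far above their groups for several enzymes.

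The comparison with the most changed members was Y665H against Y665F in females, where both groups carry a changed STAT5B. Of 32 members, 19 rose and 1 fell in Y665H (edgeR quasi-likelihood test, Benjamini-Hochberg adjusted p under 0.05, termed called). Of all 15493 genes tested, 17.4% were called, 8.77% higher and 8.59% lower. The median log2 fold change of the members was 0.75, against -0.03 over all genes, and 26 of 32 were above 0. In 17 members every Y665H female library was above every Y665F female library, a pattern that 6.62% of all genes showed. Abcg1 and Lbr showed the opposite pattern, which 21.5% of all genes showed. Since the members were chosen with earlier results known, these shares describe the set and do not test it. The 2 genotypes also differed in cell type markers, which is described after the members.

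In the mevalonate arm, 7 of 8 enzymes rose in Y665H females, with a median log2 fold change of 1.17. Acat2, on chr17:12942890-12960747, encodes the cytosolic thiolase that joins acetyl-CoA units. Its level was 47.8, 66.6, 51.5 and 59.2 CPM in Y665F females and 151, 142, 196 and 222 CPM in Y665H females. No library overlapped, and the log2 fold change was 1.80 ± 0.17 (SE; adjusted p = 0.00148). Hmgcs1, the HMG-CoA synthase whose promoter is shown above, was at 136, 131, 122 and 98.9 CPM in Y665F females and at 214, 354, 231 and 181 CPM in Y665H females. Its rise of 1.14 ± 0.21 (adjusted p = 0.00834) left no overlap either, although Y665H female 2 stood above the other 3.

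Pmvk and Mvk encode the kinases that act on mevalonate in turn, and Pmvk was the one without overlap between the groups. Pmvk was at 30.3, 40.3, 26.6 and 35.5 CPM in Y665F females against 83.8, 54.3, 66.2 and 96.4 CPM in Y665H females, a log2 fold change of 1.33 ± 0.21 (adjusted p = 0.00541). Mvk was at 29.2 to 35.1 CPM against 33.1 to 38.6 CPM, with overlap, and rose by 0.39 ± 0.10 (adjusted p = 0.0285). The call for Mvk was kept in 3 of 8 fits that left out 1 library. Mvd, the decarboxylase, was at 8.02, 10.1, 14.9 and 9.85 CPM against 15.7, 20.4, 18.6 and 21.4 CPM (0.98 ± 0.17, adjusted p = 0.00751).

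The isoprenoid enzymes divided along the branch. Idi1, the isomerase that makes the reactive isoprene unit, was at 6.63 to 10.9 CPM in Y665F females and 15.0 to 23.9 CPM in Y665H females (1.21 ± 0.20, adjusted p = 0.00589). Fdps, which makes farnesyl diphosphate, was at 22.4 to 39.0 CPM against 48.6 to 80.0 CPM (1.28 ± 0.22, adjusted p = 0.00705). Ggps1, which leads from the sterol route to protein prenylation, was the 1 enzyme of this arm that was not called: 16.8 to 23.3 CPM against 17.5 to 22.9 CPM, with a log2 fold change of 0.18 and a 95% interval of -0.11 to 0.46.

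In the squalene and sterol arm, 8 of 12 enzymes rose, with a median log2 fold change of 0.84. Cyp51, the lanosterol demethylase, was at 31.7, 35.8, 41.9 and 33.3 CPM in Y665F females and at 122, 74.0, 80.8 and 99.7 CPM in Y665H females (1.56 ± 0.18, adjusted p = 0.00206). Nsdhl, a dehydrogenase that takes part in removing methyl groups from the sterol ring, was at 22.9, 31.4, 19.5 and 22.8 CPM against 63.0, 55.4, 52.1 and 60.4 CPM (1.40 ± 0.17, adjusted p = 0.00212). The lowest Y665H female was thus well above the highest Y665F female for both genes. Lss, the lanosterol synthase, rose by 1.02 ± 0.16 (adjusted p = 0.00537), from 32.2 to 51.7 CPM in Y665F females to 67.7 to 85.6 CPM in Y665H females.

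The last steps rose as well. Dhcr7, the reductase of the last step, was at 17.4, 20.8, 20.2 and 16.5 CPM against 31.7, 34.3, 25.7 and 31.8 CPM (0.87 ± 0.12, adjusted p = 0.0032). Ebp, the sterol isomerase, rose by 0.63 ± 0.11 (adjusted p = 0.00756) and Sc5d, the desaturase, by 0.76 ± 0.20 (adjusted p = 0.0323). Their libraries did not overlap between the genotypes, but the Sc5d groups met at 88.8 and 89.3 CPM, and its call was kept in 4 of 8 fits without 1 library. Fdft1, the squalene synthase at the entry to sterols, rose by 0.86 ± 0.24 (adjusted p = 0.0389) with overlap, and was called in 2 of those 8 fits. On chromosome 14 Fdft1 shares 774 exon bases with Ctsb, a cathepsin gene on the other strand, and whether the counting used strand is not given in the sources used here.

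Tm7sf2 and Lbr encode proteins with the same sterol reductase activity, and they did not move together. Tm7sf2 was at 7.58, 8.75, 9.99 and 7.84 CPM in Y665F females and at 15.9, 18.1, 15.6 and 13.7 CPM in Y665H females (1.04 ± 0.13, adjusted p = 0.00216). Lbr, which is also the lamin B receptor of the nuclear envelope, was at 50.7, 45.8, 49.4 and 44.4 CPM against 31.3, 33.7, 37.6 and 42.7 CPM. All 4 Y665H libraries were below the Y665F libraries for Lbr, but the difference of -0.25 ± 0.09 was not called (adjusted p = 0.0927).

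The other enzymes not called were Sqle, Msmo1 and Hsd17b7. Sqle, the squalene epoxidase, was at 12.3, 17.4, 35.1 and 15.1 CPM in Y665F females and at 33.7, 31.8, 23.3 and 37.3 CPM in Y665H females. The overlap came from Y665F female 3, the library with 1095 CPM of epithelial markers. The log2 difference of Sqle was 0.82 ± 0.31 (adjusted p = 0.0989) with all libraries and 1.21 (adjusted p = 0.00469) without that one. Msmo1, the methyl sterol oxidase, was likewise highest in that library among Y665F females (26.4 CPM) and went from 0.67 (adjusted p = 0.083) to 0.96 (adjusted p = 0.00287) without it. Hsd17b7 went from 0.39 (adjusted p = 0.136) to 0.52 (adjusted p = 0.0455). This fit was picked because that library was high for Sqle and Msmo1, which favours larger differences. The calls over all genes in it are not given here, so its calls are no result about these 3 genes.

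Stard4, a soluble carrier of sterols between membranes, rose as well. It was at 7.33, 7.54, 6.04 and 7.50 CPM in Y665F females and at 9.84, 8.81, 12.4 and 12.1 CPM in Y665H females (0.74 ± 0.15, adjusted p = 0.0121).

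Of the 7 genes of the SREBP system, Insig1 and Srebf1 rose. Insig1, on chr5:28071363-28078662, encodes an anchor of SCAP and is itself a known SREBP target. It was at 122, 218, 121 and 179 CPM in Y665F females and at 546, 552, 1041 and 856 CPM in Y665H females. Its log2 fold change of 2.36 ± 0.29 (adjusted p = 0.00216), which is 5.13-fold, was larger than that of any other member in this comparison. Srebf1, which encodes SREBP-1, was at 291, 405, 296 and 454 CPM against 880.1, 526, 648 and 726 CPM (1.10 ± 0.22, adjusted p = 0.0136), again with no overlap.

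The rest of the system gave no call. Srebf2, which encodes the isoform that mainly drives cholesterol synthesis, was at 64.6, 74.1, 114 and 66.4 CPM in Y665F females and 69.1, 74.8, 52.7 and 56.0 CPM in Y665H females (log2 difference -0.18, interval -0.62 to 0.26). Its level thus overlapped while those of most enzymes did not. Insig2, the paralog of Insig1, was at 44.3 to 53.1 CPM against 42.9 to 46.5 CPM, with a log2 difference of -0.02 and an interval of -0.21 to 0.17. Scap gave -0.10 (-0.47 to 0.27). For the protease genes, the log2 difference was 0.02 (-0.11 to 0.16) for Mbtps1 and 0.23 (0.06 to 0.40, adjusted p = 0.072) for Mbtps2, which shares 2867 exon bases with Yy2 on the same strand.

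The 4 LXR genes went different ways. Nr1h3, the gene of LXR alpha, was at 98.9, 97.7, 72.1 and 105 CPM in Y665F females and at 126, 132, 134 and 115 CPM in Y665H females (0.58 ± 0.13, adjusted p = 0.0206). Nr1h2, the gene of LXR beta, gave 0.09 (-0.26 to 0.45). Abca1, which exports cholesterol to apolipoprotein A-I, was at 929, 721, 732 and 927 CPM against 668, 692, 886 and 742 CPM, with a log2 difference of -0.00 (-0.32 to 0.31).

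Abcg1, on chr17:31057675-31117988, encodes the transporter that exports cholesterol to HDL particles, and it fell. Its level was 63.8, 44.1, 53.8 and 60.4 CPM in Y665F females and 28.0, 21.1, 18.6 and 17.8 CPM in Y665H females. The log2 fold change was -1.22 ± 0.19 (adjusted p = 0.0047), with no overlap, and the call was kept in all 8 fits without 1 library. Abca1 and Abcg1, both LXR targets, thus had intervals that did not overlap.

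**Figure D2:**
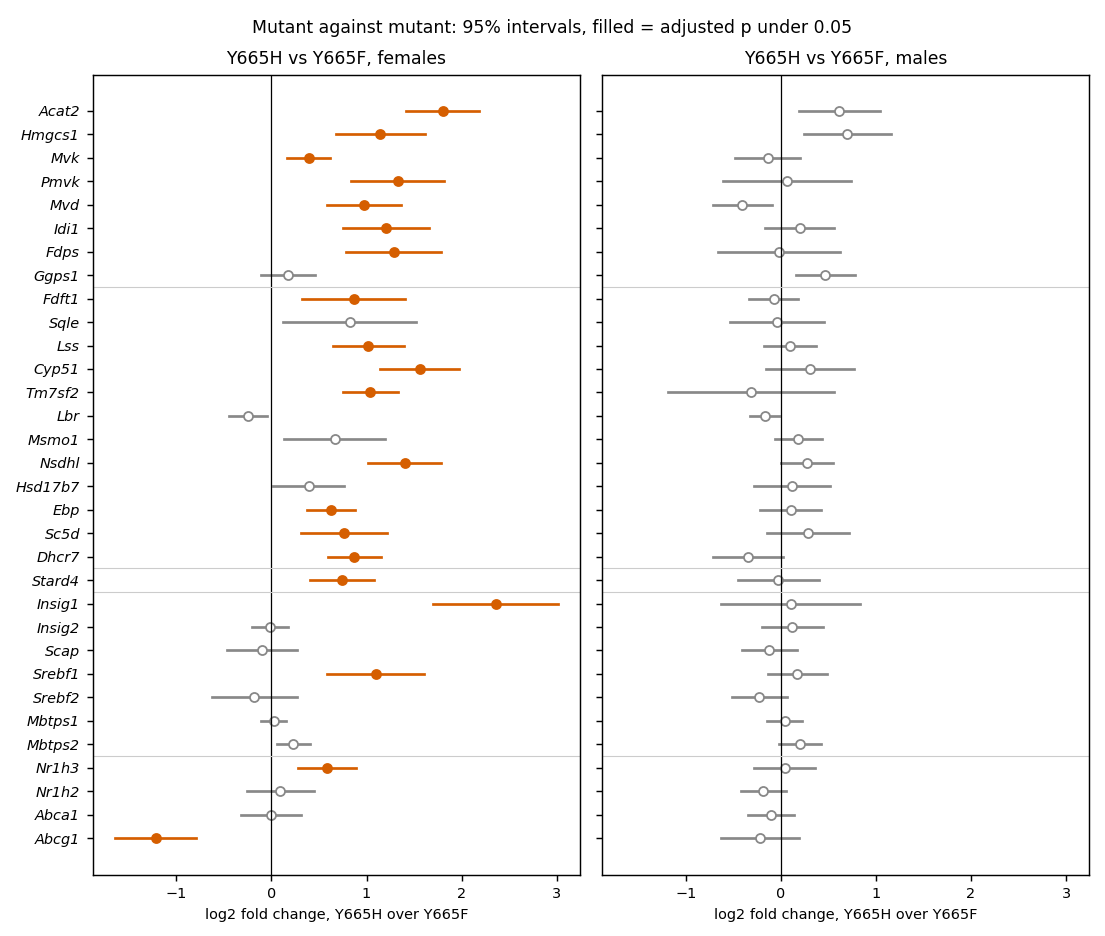
Log2 fold change of Y665H over Y665F for each of the 32 members with its 95% interval, in females (left) and males (right); filled orange points were called and open grey points were not. In females 19 members are called to the right of 0 and Abcg1 to the left, and in males none is called; lines part the mevalonate arm, the sterol arm, Stard4, the SREBP system and the LXR system.

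When 1 library was left out, 16 of the 20 called members were called in all 8 fits; the exceptions were Mvk, Fdft1, Sc5d and Nr1h3. With totals as the scale instead of TMM factors, the fit moved the median of all genes to -0.18 with 18 members called, 16 higher and 2 lower (Abcg1 and Lbr), while over all genes the calls went from 1358 higher and 1331 lower to 799 higher and 2406 lower.

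Cell type markers moved with this comparison. A macrophage list of 10 genes summed to 1221 to 1909 CPM in Y665F females and to 619 to 882 CPM in Y665H females, with no overlap, and 6 of its 10 genes were called lower in Y665H. B cell markers were at 20.2 to 30.9 against 7.74 to 11.9 CPM, with 6 of 8 called lower, and T and NK cell markers at 27.4 to 41.9 against 5.81 to 26.2 CPM, with 5 of 9 called lower. The adipocyte list was at 12076 to 19951 against 22691 to 26229 CPM, with 2 of 10 genes called higher. The muscle list was at 30.7 to 177 against 22.0 to 1556 CPM, with overlap and 6 of 10 genes called higher. A hepatocyte list of 6 genes, of which 3 reached a mean of 1 CPM in Y665H females, summed to 864 to 1231 against 1801 to 3560 CPM, without overlap. Of its 3 genes tested, 2 were above 0 and 1 below, with 1 called higher and 0 lower. The mean log2 level of the list (log2 of CPM plus 1) did overlap, at 2.49 to 2.98 in Y665F and 2.53 to 2.75 in Y665H females. The part of the lymphocyte and hepatocyte lists in the members' levels was not tested. Covariates were the mean log2 levels of a list, not the sums. On that scale the adipocyte list overlapped, at 9.78 to 10.55 in Y665F and 10.48 to 10.74 in Y665H females. With the adipocyte list as a covariate 19 members were called, and with the muscle list 17. The calls over all genes in these fits are not given here. With the macrophage list as a covariate, added after the data were seen, 0 members and 0 of all genes were called by edgeR, 3227 genes had an unadjusted p under 0.05, and the 20 called members kept their sign. In that fit the log2 difference was 1.89 for Insig1 (adjusted p = 0.178), 1.26 for Acat2 (adjusted p = 0.104), 0.26 for Mvd (adjusted p = 0.609) and -0.62 for Abcg1 (adjusted p = 0.381). Since the list does not overlap between these groups, its level and the genotype cannot be told apart.

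**Figure D3:**
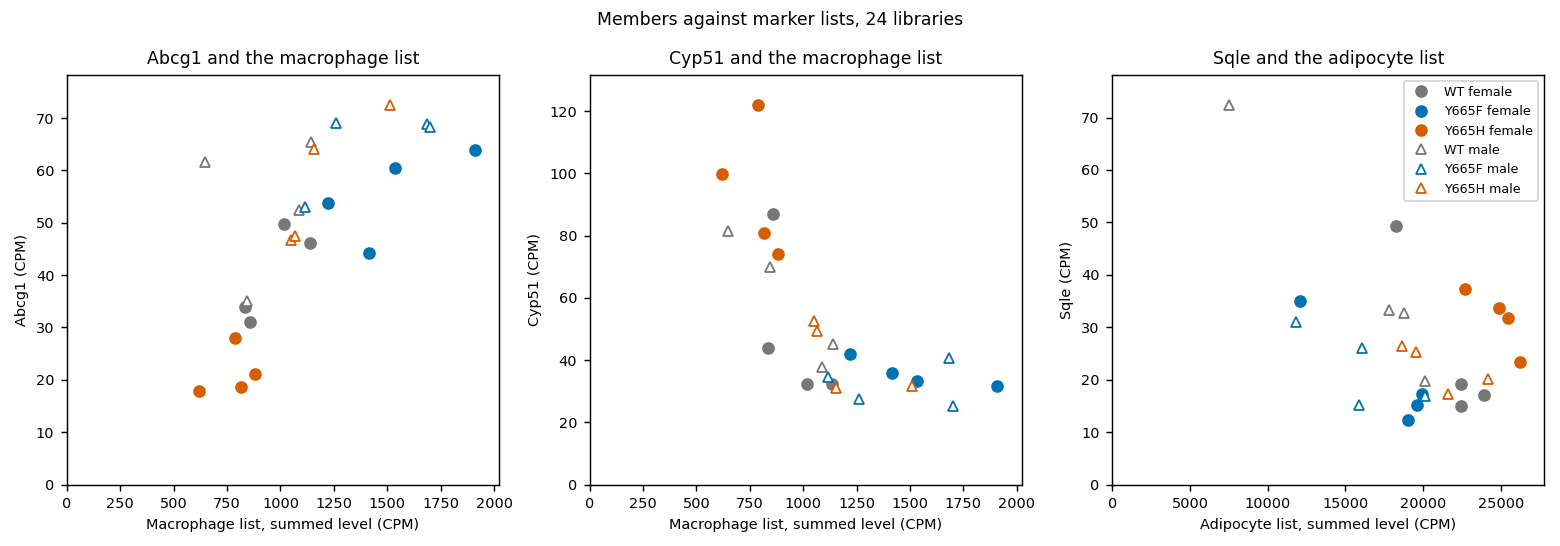
Level in CPM of Abcg1 and Cyp51 against the summed level of the macrophage list, and of Sqle against that of the adipocyte list, 1 point per library (24), filled circles for females and open triangles for males. Y665H females have the lowest Abcg1 levels (17.8 to 28.0 CPM) at 619 to 882 CPM of the macrophage list; the highest Sqle level, 72.4 CPM, is that of WT male 2, which has 7525 CPM of the adipocyte list.

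Among WT and Y665F females, which share the Y665F libraries with the comparison above, 2 members fell in Y665F and none rose. Of all genes tested 3.33% were called, 1.02% lower (361 higher and 160 lower, or 1025 and 139 with library totals as the scale). For Hmgcs1, the WT females held 192, 219, 189 and 196 CPM and the Y665F females 136, 131, 122 and 98.9 CPM (-0.84 ± 0.12, adjusted p = 0.0159). Insig1 was at 316, 970.1, 469 and 391 CPM in WT females against 122, 218, 121 and 179 CPM (-1.88 ± 0.38, adjusted p = 0.0414). No library of either gene overlapped. The Insig1 call was kept in 1 of 8 fits without 1 library and the Hmgcs1 call in 7 of 8, the exception being the fit without WT female 4, which called 0 members.

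Of the 32 members 27 were below 0 in Y665F females, with a median of -0.51 against 0.02 over all genes. All 8 mevalonate enzymes and 11 of 12 sterol enzymes were among these 27. In 6 members every Y665F library was below every WT library, against 2.96% of all genes: Hmgcs1, Insig1, Dhcr7, Srebf1, Stard4 and Acat2. Beside the called pair, Srebf1 was at 509, 788, 643 and 513 CPM in WT females against 291, 405, 296 and 454 CPM in Y665F females, with a log2 difference of -0.90 ± 0.21 (adjusted p = 0.0573). Acat2 gave -0.98 ± 0.25 (adjusted p = 0.0716) and Stard4 -0.64 ± 0.18 (adjusted p = 0.0826). The macrophage list was at 836 to 1137 CPM in WT and 1221 to 1909 CPM in Y665F females. The skeletal muscle list was at 93.5 to 883 CPM in WT and 30.7 to 177 CPM in Y665F females. Of these 2 lists 0 genes were called, while all 10 macrophage genes were above 0 (median 0.43) and all 10 muscle genes below 0 (median -3.63). T and NK cell markers were at 8.22 to 11.4 CPM in WT and 27.4 to 41.9 CPM in Y665F females, with 8 of 9 genes called higher. B cell markers were at 7.96 to 13.1 against 20.2 to 30.9 CPM, with 2 of 8 called higher, and neither lymphocyte list overlapped. All 10 adipocyte genes were below 0, with 0 called. The part of the lymphocyte lists in the members' levels was not tested. With the macrophage list as a covariate 0 members and 1 of all genes were called, and with the muscle list 0 members and 0 genes, where 3049 genes had an unadjusted p under 0.05. Hmgcs1 then gave -0.88 (adjusted p = 0.0807) with the macrophage list and -0.92 (adjusted p = 0.0826) with the muscle list. Insig1 gave -1.08 (adjusted p = 0.386) and -2.51 (adjusted p = 0.0826). On the covariate scale the macrophage list did not overlap, at 5.90 to 6.33 in WT and 6.37 to 6.96 in Y665F females. Its level and the genotype therefore cannot be told apart here either.

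In Y665H against WT females 0 of 32 members were called by edgeR, where 3.34% of all genes were. At an unadjusted p under 0.05 there were 6 members, against 23.8% of all genes. DESeq2 called 4 members (Pmvk, Cyp51 and Acat2 higher, Abcg1 lower), against 11.5% of all genes. Abcg1 came closest in edgeR: the WT females held 49.8, 31.0, 33.9 and 46.1 CPM, the Y665H females 28.0, 21.1, 18.6 and 17.8 CPM. The difference of -0.88 ± 0.20 had an adjusted p of 0.0505, with no overlap between the groups. The macrophage list was at 836 to 1137 CPM in WT and 619 to 882 CPM in Y665H females, with 9 of 10 genes below 0 and 0 called. The hepatocyte list summed to 902 to 1542 and 1801 to 3560 CPM, but its genes did not move together. Of 3 tested, 1 was above 0 and 2 below, with 0 called higher and 1 called lower. The mean log2 level of that list overlapped, at 2.71 to 2.99 in WT and 2.53 to 2.75 in Y665H females.

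WT female 2 decided the count in this comparison. It was the highest WT female for 22 of 32 members and for 17 of 20 enzymes. Mvd was at 47.1 CPM there and at 10.4 to 11.4 CPM in the other 3 WT females, Dhcr7 at 64.1 against 21.2 to 23.2 CPM, and Insig1 at 970.1 against 316 to 469 CPM. That library had 18246 CPM of the adipocyte list, against 22409 to 23909 CPM in the other 3, and 103 CPM of the epithelial list, against 15.9 to 42.8 CPM. Their part in its high enzyme levels was not tested. Without it 7 members were called, all higher in Y665H: Mvd (0.82), Fdps (1.12), Sqle (0.91), Lss (0.86), Cyp51 (1.41), Nsdhl (0.87) and Acat2 (1.10). Over all genes that fit called 2.04% in either direction, and 138 of 15570 higher. The library was singled out for its high enzyme levels, which favours such calls, so they are no separate result about the members.

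**Figure D4:**
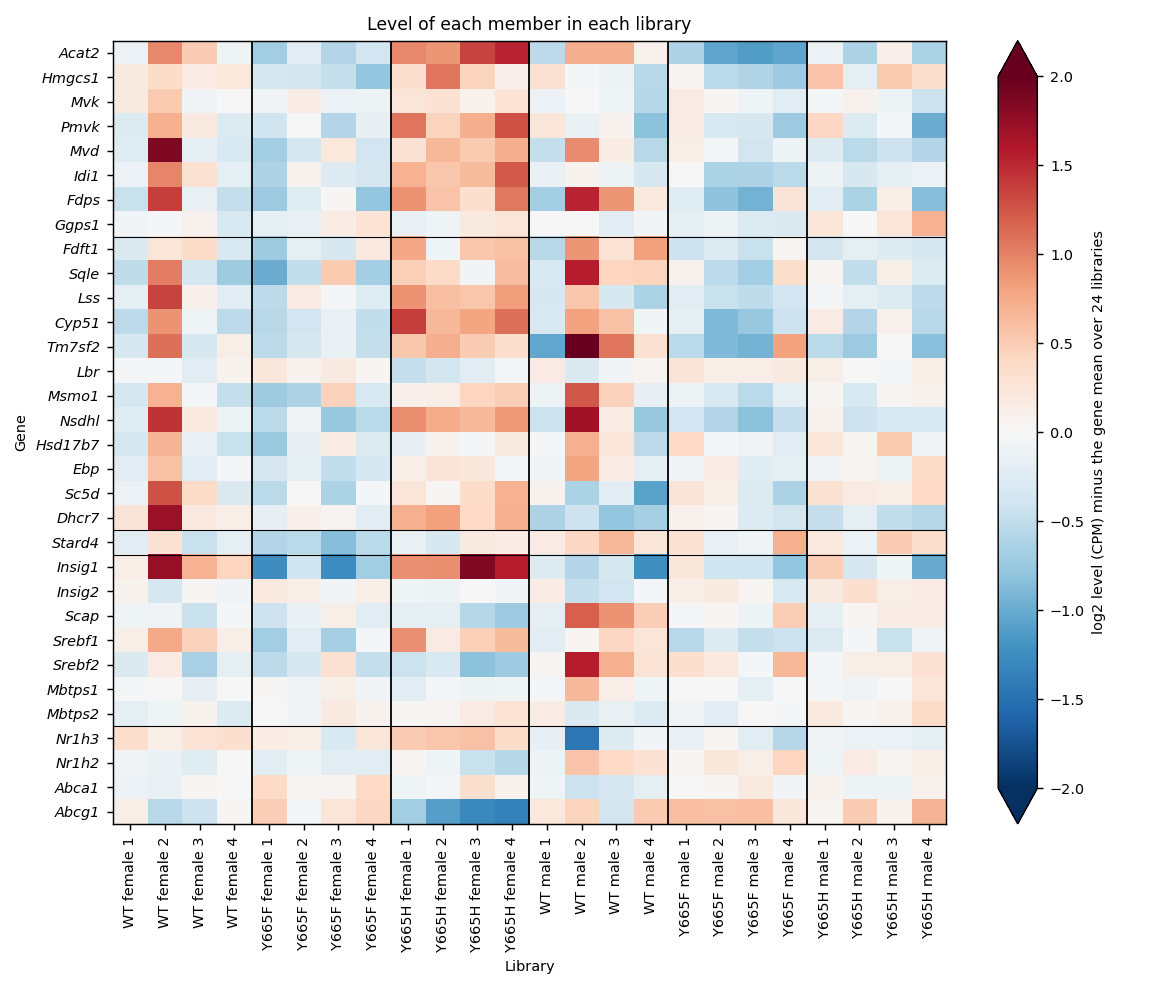
Heat map of log2 level (CPM) minus the mean of that gene over all 24 libraries, 1 row per member and 1 column per library; red is above the gene's mean, blue is below it, and the colour scale ends at -2 and 2. Most enzyme rows are red in the 4 Y665H females and in WT female 2 and WT male 2, and the Abcg1 row is blue in the 4 Y665H females.

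In males no mutant comparison called a member in edgeR. For Y665F against WT, 0% of all genes were called. At an unadjusted p under 0.05 there were 6 members against 17.1% of all genes, and DESeq2 called 4 members (Acat2, Cyp51 and Srebf1 lower, Dhcr7 higher) against 7.01% of all genes. Acat2 was at 53.8, 128, 127 and 81.8 CPM in WT males and at 50.4, 37.0, 35.6 and 37.1 CPM in Y665F males, a log2 difference of -1.23 ± 0.27 (adjusted p = 0.142) with no overlap. The lowest WT male was WT male 1, the library almost free of epididymis markers. The fit without it called Acat2 (-1.42, adjusted p = 0.0407) and Fdft1 (-0.86, adjusted p = 0.0473). Over all genes that fit called 570 of 16632, against 0 in the main fit.

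For Y665H against WT males, 0% of all genes were called. At an unadjusted p under 0.05 there were 7 members against 11.4% of all genes, and DESeq2 called 0 members against 0.741% of all genes. For Y665H against Y665F males, 1.03% of all genes were called. Here 6 members had an unadjusted p under 0.05 against 18% of all genes, and DESeq2 called 3 (Hmgcs1, Acat2 and Ggps1, all higher) against 7.05% of all genes. Hmgcs1 was at 176, 117, 112 and 102 CPM in Y665F males and at 251, 148, 243 and 214 CPM in Y665H males (0.70 ± 0.20, adjusted p = 0.134). Its groups overlapped through 1 library on each side, Y665F male 1 and Y665H male 2.

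The WT males differed widely among themselves. WT male 2 was the highest WT male for 20 of 32 members and 16 of 20 enzymes. Srebf2 was at 94.8, 275, 152 and 112 CPM, Scap at 64.6, 169.9, 137 and 103 CPM, and Tm7sf2 at 5.32, 46.7, 22.9 and 13.4 CPM in WT males 1, 2, 3 and 4. The order of these 3 genes follows that of the epididymis list (1.15, 13318, 3222 and 1234 CPM). The epithelial list had the same order (35.8, 1030, 567 and 282 CPM). Nr1h3 ran the other way in WT male 2, at 32.8 CPM against 74.9 to 86.1 CPM in the other 3. The part of epididymis or other epithelial RNA in these levels was not tested.

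The effect of the mutation was compared between the sexes on 16 libraries each, as the male minus the female log2 fold change. For Y665F the test called 0 members and 0% of all genes; 4 members against 21.8% of all genes had an unadjusted p under 0.05, and DESeq2 called 2 (Insig1 and Dhcr7) against 7.01% of all genes. For Y665H it called 0 members and 0.0119% of all genes; 6 members against 18.3% of all genes had an unadjusted p under 0.05, and DESeq2 called 2 (Acat2 and Fdft1) against 4.7% of all genes. Both tests use the WT males, and without WT male 1 they called 1 member (Insig1) for Y665F and 4 (Acat2, Fdft1, Insig2 and Tm7sf2) for Y665H. The calls over all genes in these fits are not given here, so the counts are no result about the members. In Y665F against WT males, leaving out that library took the calls over all genes from 0 to 570.

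The difference between the mutants was compared between the sexes in the same way, a comparison added after the data were seen that uses no WT library. It called 4 members, all with a smaller Y665H over Y665F difference in males, against 0.868% of all genes called and 0.692% called in that direction. They were Mvd (-1.40 ± 0.22, adjusted p = 0.0164), Dhcr7 (-1.23 ± 0.21, adjusted p = 0.025), Nsdhl (-1.14 ± 0.22, adjusted p = 0.0302) and Insig1 (-2.27 ± 0.46, adjusted p = 0.0365). Insig1 shows the pattern: 339, 221, 218 and 169 CPM in Y665F males overlapped 407, 229.6, 273 and 144 CPM in Y665H males. Mvd was at 9.96 to 14.0 CPM in Y665F males and 8.61 to 10.8 CPM in Y665H males, with a log2 difference of -0.40 (adjusted p = 0.175) in males against 0.98 in females. No member was called without Y665F male 1, Y665F male 2, Y665H male 3 or Y665F female 4, or with the spread estimated on all 24 libraries, while 14 were with DESeq2. The macrophage list was at 1117 to 1701 CPM in Y665F males and 1049.8 to 1511 CPM in Y665H males. All 10 of its genes were above 0 in this comparison, with a median of 0.49 and 0 called, where 0.868% of all genes were called. The part of that list in the members' values was not tested. All 10 muscle genes were below 0 in this comparison, with a median of -5.53 and 3 called. With the muscle list as a covariate 5 members were called. The calls over all genes in the covariate, leave-one-out and DESeq2 fits of this comparison are not given here. These counts are therefore no result about the members. T and NK cell markers were at 34.2 to 65.9 CPM in Y665F males and 7.92 to 24.6 CPM in Y665H males, without overlap, and 0 of 9 were called in this comparison.

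Between the sexes in WT, 2 members were called, both lower in males, where 13.1% of all genes were called and 5.95% lower (1135 higher and 944 lower, or 2111 and 674 with library totals as the scale). Dhcr7 was at 12.6, 14.5, 11.4 and 12.2 CPM in WT males against 23.2, 64.1, 22.3 and 21.2 CPM in WT females (-1.52 ± 0.38, adjusted p = 0.0375). Insig1 was at 241, 192, 231 and 124 CPM against 316, 970.1, 469 and 391 CPM (-1.59 ± 0.40, adjusted p = 0.0378). Both genes were without overlap, yet WT female 2 raised both female means, and without it Dhcr7 was called and Insig1 was not (-1.13, adjusted p = 0.0781). The Dhcr7 call was kept in 2 of 8 fits without 1 library and the Insig1 call in 1 of 8. Without WT male 1, 6 members were called, and the calls over all genes in that fit are not given here. The muscle list was at 18.4 to 26.4 CPM in WT males and 93.5 to 883 CPM in WT females. With the adipocyte, muscle or epididymis list as a covariate 0 members were called, and the calls over all genes went from 2079 to 303, 92 and 118. In those fits Dhcr7 gave -1.75, -2.26 and -1.56 and Insig1 -1.58, -2.32 and -1.46, with adjusted p from 0.0809 to 0.370.

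Within groups most enzyme pairs deviated in the same direction. For the 18 enzymes other than Acat2 and Ggps1, the deviation of each library from its group mean was taken (log2 CPM, 24 libraries). The median Pearson r was 0.54 over 153 pairs, with 134 above 0. Over all 496 pairs of members, which include these 153, it was 0.22. No such value was computed over all genes, so whether the pattern is particular to these enzymes was not tested. Fdps and Sqle gave the highest r, 0.92. Lbr had the lowest median r to the other 17 enzymes, -0.25. Without WT male 2, WT female 2 and Y665F female 3 the median over the 153 pairs was 0.26, with 112 above 0, and that of Lbr was -0.09, where Ebp, Tm7sf2 and Fdft1 also lay near 0 (-0.0030, 0.03 and 0.04). The libraries share depth and tissue makeup in these values: the within-group r with the adipocyte list was -0.79 for Sqle, -0.75 for Tm7sf2 and 0.91 for Nr1h3.

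Neighbouring pathways were described by lists chosen with earlier results known. Of 14 genes of fatty acid synthesis controlled by SREBP-1, 9 were called higher in Y665H than in Y665F females, against the 8.77% of all genes given above, with a median log2 fold change of 1.31. Elovl5, an elongase, rose by 1.11 ± 0.11 (adjusted p = 0.00148), Acacb, an acetyl-CoA carboxylase, by 2.57 ± 0.30 (adjusted p = 0.00212) and Elovl6, another elongase, by 2.70 ± 0.45 (adjusted p = 0.00652). In WT males 6 of the 14 were called lower than in WT females, against 5.95% of all genes. Of 13 genes of SREBP control and sterol degradation, 0 were called in edgeR in any of the 10 comparisons.

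Of 15 genes of sterol uptake, storage and trafficking, 2 rose and 2 fell in Y665H against Y665F females, where 8.77% of all genes were called higher and 8.59% lower. Scarb1, the HDL receptor, rose from 123 ± 18.3 to 225 ± 38.3 CPM (SD, n = 4; edgeR adjusted p = 0.00505). Soat1, which esterifies cholesterol, fell by 0.52 ± 0.08 on the log2 scale (adjusted p = 0.00436) and Nceh1, which hydrolyses cholesteryl esters, by 0.51 ± 0.10 (adjusted p = 0.0127). Of 16 LXR partners and targets, 14 passed the filter there, and 2 rose and 3 fell. Lpcat3, a phospholipid enzyme, rose by 1.01 ± 0.14 (adjusted p = 0.0033), and Cyp27a1, which makes an oxysterol, fell by 0.63 ± 0.14 (adjusted p = 0.0199).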

How the data were processed

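For each library the authors deposited 1 table of whole-number read counts by gene symbol, not normalized. Per the labels' protocols, ribosomal RNA was removed and stranded paired-end libraries were prepared. The submitters' processing notes name FastQC 0.11.9, Trimmomatic 0.36, STAR, SAMtools 1.9, Picard 2.9.2, HTSeq 0.9.1 and build mm10, without roles. The annotation and the strand setting are not given in the sources used here, so reads of overlapping genes may be misassigned. The 5 entries that name no gene (24.8 to 39.7% of counts) were left out. Depth limits a count of 0 to 0.0726 to 0.143 CPM (3 counts), counting error only. Replicates differed beyond sampling noise in every pair.

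The main test was edgeR 4.0.16 (limma 3.58.1, R 4.3.3): TMM, filterByExpr, glmQLFit and glmQLFTest, Benjamini-Hochberg over all genes tested, on the 8 libraries of each contrast or the 16 of each interaction. It was checked on simulated counts. Intervals are 95%. Alternatives were DESeq2 1.42.0, other scalings, no filter, a replicate block, all 24 libraries, marker covariates and leaving out each library. Same-numbered libraries did not pair. Gene models are GENCODE GRCm38. The named genes are the 32 members and at most 4 called genes per pathway list and comparison. The members and lists were chosen with earlier results of these data known. The macrophage covariate and the sex interaction of Y665H against Y665F were added after the data were seen.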

Additional observations from a re-analysis of the deposited data

Results flagged for a closer look

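In 17 of the 192 combinations of a member and a group, 1 library lay far from the other 3 by Dixon's test, which chance alone does in about 1 of 20. WT female 2 accounted for 6: Mvd at 47.1 CPM, Fdps at 101, Sqle at 49.4, Lss at 118, Nsdhl at 90.1 and Dhcr7 at 64.1 CPM, all above the other WT females. In the other females, Scap was low in WT female 3 (54.1 CPM), Mvk and Nr1h2 were high in Y665F female 2 (35.1 and 67.4 CPM), Stard4 was low in Y665F female 3 (6.04 CPM) and Idi1 was high in Y665H female 4 (23.9 CPM). In the males, Idi1 and Acat2 were high in Y665F male 1 (10.2 and 50.4 CPM), Mbtps1 was low in Y665F male 3 (123 CPM), Tm7sf2 was high and Abcg1 low in Y665F male 4 (19.0 and 53.1 CPM), and Msmo1 was low in Y665H male 2 (15.5 CPM). WT male 2, with 13318 CPM of epididymis markers, was not among them.

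The difference between Y665H and Y665F differed between the sexes for 4 members, as the male minus the female log2 fold change: -1.40 for Mvd, -1.14 for Nsdhl, -1.23 for Dhcr7 and -2.27 for Insig1 (edgeR interaction test).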

How the results depend on the processing

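The number of members called in Y665H against Y665F females was 20 and stayed within 1.5 times of that in every alternative but the macrophage covariate, which called 0. In the other comparisons few or no members were called and counts moved with the setting. For Y665F against WT females (2 called), DESeq2 called 6, the fit on all 24 libraries 4, the adipocyte covariate 1, and the muscle and macrophage covariates 0. For Y665H against WT females (0), DESeq2 called 4, the adipocyte covariate 3, and library totals and all 24 libraries 1 each. For Y665F against WT males (0), DESeq2 called 4 and all 24 libraries 1, and for Y665H against Y665F males (0) they called 3 and 1. Between WT sexes (2), all 24 libraries called 9, DESeq2 4, and the muscle, adipocyte and epididymis covariates and the replicate block 0. The sex interactions of Y665F and of Y665H (0 each) had 2 calls each with DESeq2, and that of Y665H against Y665F (4) had 14 with DESeq2, 13 with the adipocyte covariate and 0 on all 24 libraries. The cause was not tested. Where the calls over all genes in a fit are not given, its count of members describes the fit and is no result about the members.

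Leaving out 1 library gave 16 to 22 calls for Y665H against Y665F females, 0 to 2 for Y665F against WT females, 0 to 7 for Y665H against WT females, 0 to 2 for Y665F against WT males, 0 in each fit for the other male comparisons, 0 to 6 between WT sexes, and 0 to 1, 0 to 4 and 0 to 5 for the sex interactions of Y665F, of Y665H and of Y665H against Y665F. Over 51 results of single genes and 899 alternative values, 601 kept direction and call, 297 kept direction without the call and 1 changed sign: Cyp27a1 in Y665H against Y665F females, 0.11 with the macrophage covariate. In no comparison did all 4 same-numbered pairs of libraries correlate above 0.1, so the numbers were not taken as pairs. With the replicate block 17 members were called in Y665H against Y665F females, where the calls over all genes are not given here. In Y665F against WT females it called 3 members and 676 of 15642 genes, 365 of them lower, against 160 lower in the main fit. These counts are no result about the members. Library totals moved the median log2 fold change of all genes from 0.02 to 0.15 for Y665F against WT females and from 0.04 to 0.22 between WT sexes, so fold changes are relative to TMM scaling; over all genes they called 1164 in place of 521 for Y665F against WT females, and 72 in place of 2 and 341 in place of 143 for the sex interactions of Y665H and of Y665H against Y665F.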
